A study of Arabidopsis thaliana with 7 samples.

Results

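AT1G21500, AT2G34620, AT3G61080, AT5G44520 and AT5G57345 are 5 nuclear genes of Arabidopsis thaliana that carry no gene name in the annotation supplied with the arrays. They were chosen by their measured signals: earlier work on these arrays had placed all 5 among the 10 largest falls in a filtered list. That list held only probe sets with 1 gene, called lower in sta1 by limma and with both sta1 arrays below all wild-type arrays. The difference of the 5 genes between sta1 and wild type is therefore given as a description, without a test. Each gene has 1 probe set assigned to it alone (260877_at, 266899_at, 251353_at, 249002_at and 247899_at in the order above), and these 5 stand among 22746 probe sets of plant genes, 13513 of which have 1 gene. Transcripts were measured on 7 Affymetrix ATH1 arrays, which read biotin-labelled RNA as a brightness, or signal, per probe set.

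The samples were sta1 mutant seedlings (2 arrays), Col-LUC wild-type seedlings (4 arrays) and C24-LUC wild-type seedlings (1 array). All grew on agar with MS salts and 3% sucrose, at 22 °C and under 16 h of light and 8 h of darkness a day, were taken at 2 weeks and received no treatment. LUC is part of both wild-type names and is not explained by the labels, which give neither the strain background nor the kind of lesion of sta1. Growth notes of the sta1 samples speak of an ice1 mutant and the titles of sta1, and the titles were followed. The series title describes STA1 as a nuclear protein needed for splicing, the removal of introns from precursor mRNA. The labels do not say whether samples came from separate cultures, so a p-value here reflects the spread between arrays alone, which may be technical. All arrays read pooled seedling tissue, in which fewer cells of a type and less RNA per cell cannot be told apart.

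The arrays had median signals between 207.8 and 215.7. Col-LUC 1 came from the chip lot of sta1 1 and sta1 2 and was hybridised in the session of sta1 1, while Col-LUC 2, Col-LUC 3 and C24-LUC came from lots of their own and the record of Col-LUC 4 gives no lot. Col-LUC 1 and C24-LUC were hybridised in the same year as both sta1 arrays. Col-LUC 2 and Col-LUC 3 were hybridised in a different year, and the record of Col-LUC 4 gives no year. Of the lists of tissue markers, 3 of 6 green tissue genes and 5 of 6 root genes could be tested, and none of the 5 seed or 5 floral markers had a probe set with 1 gene. Both green and root markers were present: RCA, the activase of the carbon-fixing enzyme Rubisco, had signals of 12284.6 to 14101.2 in sta1 and 14781.5 to 15664.3 in wild type, and PYK10, a root glucosidase, of 9532.9 to 11040.5 in sta1 and 9850.7 to 13975.6 in wild type.

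As background, AT2G34620 encodes a member of the mTERF family, proteins of helical repeats that act in the expression of genes of mitochondria and chloroplasts. AT5G44520 belongs to the ribose-5-phosphate isomerases, which interconvert ribose and ribulose phosphates in the pentose phosphate pathway and in the Calvin cycle. AT3G61080 encodes a fructosamine kinase, a type of enzyme that phosphorylates sugars bound to proteins so that they fall off. The supplied tables give no product for any of the 5, and no role is stated here for AT1G21500 and AT5G57345. The named families touch gene expression in organelles, sugar phosphate metabolism and the repair of sugar-damaged proteins.

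AT2G34620, the mTERF gene, had signals of 232.4 and 242.0 on the 2 sta1 arrays. On wild-type arrays its signals were 834.8 in Col-LUC 1, 1796.7 in Col-LUC 2, 1346.7 in Col-LUC 3, 2506.0 in Col-LUC 4 and 903.6 in C24-LUC. The groups did not overlap, as the choice of genes required, and the lowest wild-type array was 3.45-fold above the higher sta1 array. On the log2 scale it averaged 7.89 ± 0.04 in sta1 (SD, n = 2) and 10.40 ± 0.67 in wild type (SD, n = 5), a 5.72-fold lower level in sta1 and the widest gap of the 5 over all wild-type arrays.

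AT1G21500 had signals of 550.3 and 545.3 in sta1. Its wild-type signals were 1722.7, 4558.7, 2196.6 and 4329.9 in Col-LUC 1 to 4 and 2884.1 in C24-LUC. Both sta1 arrays lay below every wild-type array, as the choice of genes required, and within 1.01-fold of each other. The Col-LUC arrays formed a low pair (1 and 3) and a high pair (2 and 4). The log2 level was 9.10 ± 0.01 in sta1 (SD, n = 2) and 11.52 ± 0.61 in wild type (SD, n = 5), which is 5.35-fold lower in sta1.

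AT5G57345 had signals of 598.3 and 509.6 in sta1. In wild type it had 1607.8, 2880.1, 1959.8 and 5149.4 in Col-LUC 1 to 4 and 2670.1 in C24-LUC. Col-LUC 4 stood highest, 3.20-fold above Col-LUC 1, the widest spread among wild-type arrays of the 5 genes. The groups did not overlap, which the choice of genes fixed. The log2 level was 9.11 ± 0.16 in sta1 (SD, n = 2) and 11.36 ± 0.64 in wild type (SD, n = 5), or 4.76-fold lower in sta1.

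AT5G44520, the isomerase gene, had signals of 134.4 and 171.7 in sta1. Its wild-type signals were 467.8, 891.0, 363.6 and 768.0 in Col-LUC 1 to 4 and 910.7 in C24-LUC. It was the 1 gene of the 5 in which C24-LUC was the highest array and in which Col-LUC 3, not Col-LUC 1, was the lowest wild-type array. Its groups came closest, with Col-LUC 3 lying 2.12-fold above sta1 2, and the log2 level was 7.25 ± 0.25 in sta1 (SD, n = 2) and 9.32 ± 0.60 in wild type (SD, n = 5), or 4.20-fold lower in sta1.

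AT3G61080, the fructosamine kinase gene, had signals of 191.4 and 201.7 in sta1. Wild-type arrays gave 468.6, 989.0, 945.1 and 1005.2 in Col-LUC 1 to 4 and 705.2 in C24-LUC. Col-LUC 2, 3 and 4 were close together, and Col-LUC 1 alone was about as far below them as it was above sta1. The log2 level was 7.62 ± 0.05 in sta1 (SD, n = 2) and 9.63 ± 0.47 in wild type (SD, n = 5), or 4.03-fold lower in sta1.

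**Figure D1:**
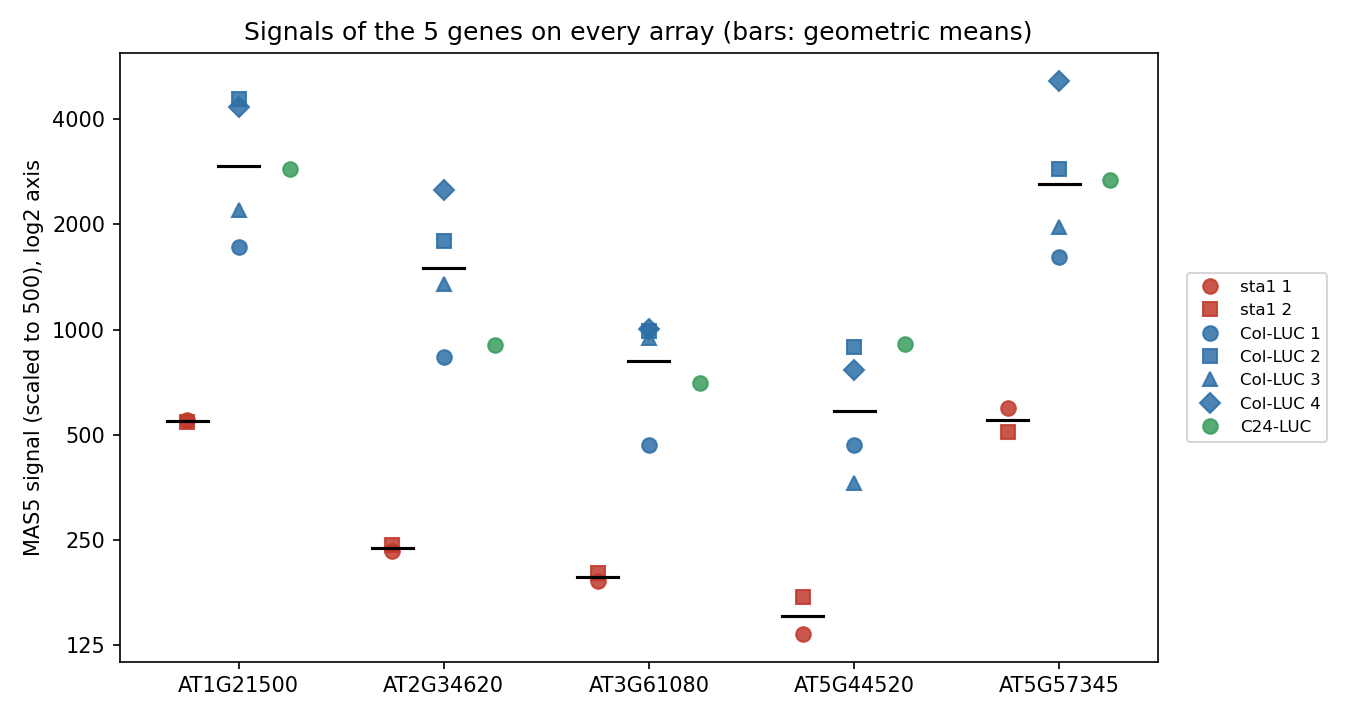
MAS5 signal of the 5 genes (log2 axis) on each array, with sta1 in red, Col-LUC in blue and C24-LUC in green, marker shapes for replicate numbers and black bars for geometric means of sta1 and Col-LUC. In every gene both sta1 signals lie below all 5 wild-type signals, which the choice of genes fixed. The Col-LUC signals spread over 2.15-fold to 3.20-fold.

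The order of the 5 by size of difference, from AT2G34620 to AT3G61080, spans log2 differences of -2.51 to -2.01. The standard errors of these differences were 0.30 to 0.41. Each belongs to 1 gene alone, and whether neighbours in that order differ from each other was not tested. AT3G61080 ranked 10, the last place of the earlier list, at 4.03-fold, and AT1G63240, at 3.84-fold, was the next gene by the filters of that list. Over all 15673 tested probe sets, 0.766% were called lower in sta1 by limma (120 probe sets), 0.357% were at least 4-fold lower (56), and 15.6% had both sta1 arrays below all wild-type arrays. All 5 genes are in each of these sets because they were chosen that way, and nothing is read from it. All 5 passed the filter on low signals in sta1 as well as in wild type.

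The size of the difference changed with the wild-type arrays used. Its direction could not change, because the genes were chosen with both sta1 arrays below all wild-type arrays. Against Col-LUC 1, the array of the same chip lot, the mean of both sta1 arrays was 3.52-fold lower for AT2G34620, 3.14-fold for AT1G21500, 3.08-fold for AT5G44520, 2.91-fold for AT5G57345 and 2.38-fold for AT3G61080. Against Col-LUC 2, 3 and 4 the same values were 7.69-fold, 6.41-fold, 4.14-fold, 5.57-fold and 4.98-fold. Against the C24-LUC array they were 3.81-fold, 5.26-fold, 5.995-fold, 4.84-fold and 3.59-fold. Between sta1 1 and Col-LUC 1, the arrays hybridised in 1 session, the log2 differences were -1.84 for AT2G34620, -1.65 for AT1G21500, -1.80 for AT5G44520, -1.43 for AT5G57345 and -1.29 for AT3G61080, where the median of all tested probe sets was 0. Chip lot moves with these sizes, and its part in them was not tested beyond these values, which leave 1 wild-type array in the lot. The year of hybridisation also differs among the wild-type arrays, and its part was not tested.

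**Figure D2:**
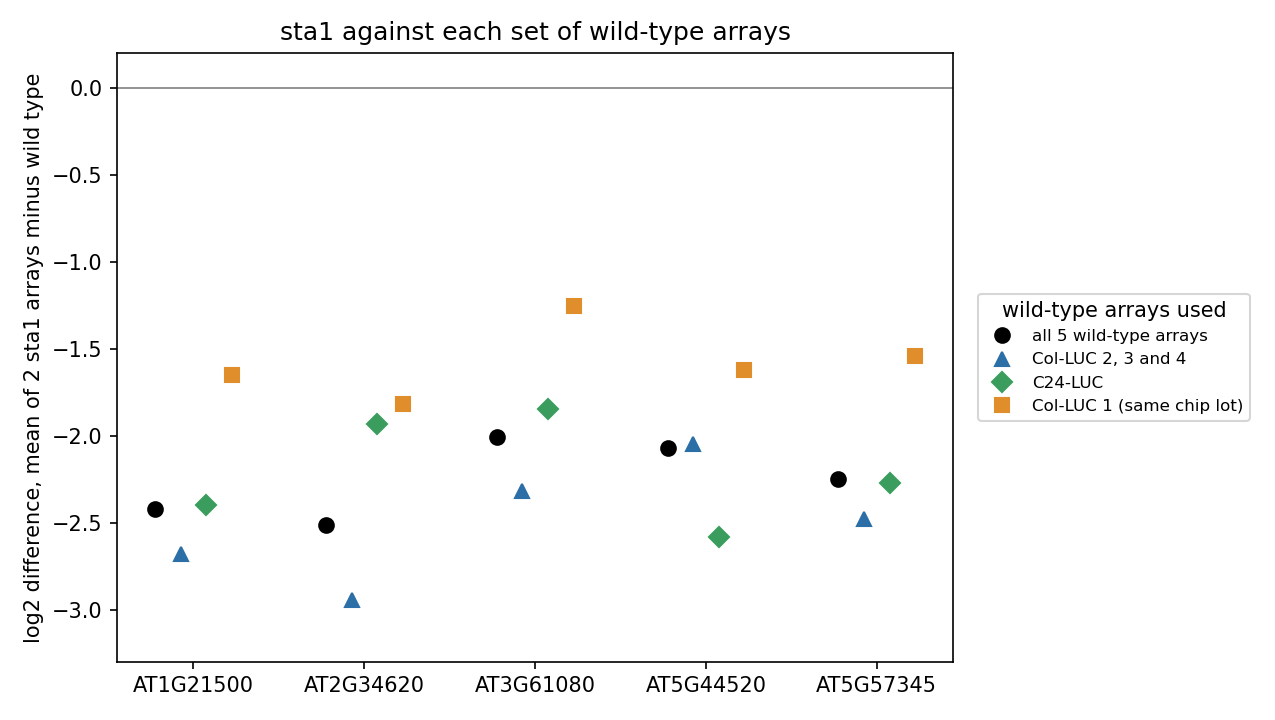
Log2 difference of the mean of 2 sta1 arrays from all 5 wild-type arrays (black circles), Col-LUC 2, 3 and 4 (blue triangles), C24-LUC (green diamonds) and Col-LUC 1 (orange squares) for each gene. All points are below 0, which the choice of genes fixed. The orange squares, between -1.82 and -1.25, are the nearest to 0 in each gene.

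Signals of these genes also differed among the Col-LUC arrays. Those with a record share neither chip lot nor session, so seedlings and technical spread cannot be told apart. Col-LUC 1 was 2.18-fold lower than the mean of the other Col-LUC arrays for AT2G34620, 2.09-fold for AT3G61080, 2.04-fold for AT1G21500, 1.91-fold for AT5G57345 and 1.34-fold for AT5G44520. It was the lowest Col-LUC array in 4 of the 5 genes, against 30.5% of all tested probe sets. Col-LUC 2 and 4 were both above Col-LUC 1 and 3 in 5 of 5 genes, against 24.7% of all tested probe sets, a pattern picked out after the values had been seen. The SD over the 4 Col-LUC arrays was 0.53 to 0.74 on the log2 scale, above that of 88.1% to 94.9% of tested probe sets, where the median SD was 0.24. The 2 sta1 arrays, of 1 chip lot, lay within 1.01-fold to 1.28-fold of each other. Their gap was above that of 5.0% to 81.3% of tested probe sets, depending on the gene. A gap of 2 arrays and an SD over 4 arrays are unlike measures and are not compared here.

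C24-LUC was set against Col-LUC to ask whether these genes also differ between the 2 wild-type strains. This contrast did not choose the genes, although the same arrays served as the wild type in the choice. No other array with a record shared the chip lot or session of the C24-LUC array. Strain, chip lot and session therefore cannot be told apart in it. None of the 5 passed (limma, 0 of 5, and 0 of 5 at an unadjusted p under 0.05), where 1.37% of tested probe sets were called and 12.5% had an unadjusted p under 0.05. AT5G44520 had a difference of 0.64 ± 0.47 on the log2 scale (SE, 1 and 4 arrays; limma adjusted p = 0.660), with a 95% interval of -0.46 to 1.74. AT2G34620 had a difference of -0.73 ± 0.50 (limma adjusted p = 0.638; interval -1.91 to 0.45).

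AT3G61080 had a difference of -0.21 between C24-LUC and Col-LUC, with an interval of -1.17 to 0.76. The differences of AT1G21500 and AT5G57345 were -0.03 and 0.03, with intervals of -1.25 to 1.19 and -1.26 to 1.32. These intervals include changes of more than 2-fold in at least 1 direction for every gene. With 1 C24-LUC array, a difference of that size in that direction remains possible. C24-LUC lay outside the Col-LUC range in 1 of the 5 genes, AT5G44520, against 45.7% of all tested probe sets.

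Pairs of the 5 genes ran together over the 7 arrays, with Pearson's r between 0.87 and 0.98 for the 10 pairs, where the gap between sta1 and wild type carries much of the r. Over the 5 wild-type arrays alone, r ranged from 0.26 (AT3G61080 with AT5G44520) to 0.86 (AT1G21500 with AT5G57345). All of these points share arrays, scaling and lots, and these r values describe the arrays only.

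The 3 genes most like each of the 5 over all 7 arrays were named by the highest r of log2 signals among 8520 tested probe sets with 1 gene, of which between 256 and 418 had an r of at least 0.9. AT2G34620 was most like AT3G50685 (r = 0.994), LPA19, an assembly factor of photosystem II (r = 0.994), and LHCB4.2, a light-harvesting antenna protein (r = 0.992). LPA19 had signals of 215.0 and 219.1 in sta1 and of 501.4, 818.7, 727.5, 897.5 and 570.2 in Col-LUC 1 to 4 and C24-LUC. LHCB4.2, a far brighter probe set, had 5207.3 and 5115.7 in sta1 and 9765.7 to 14953.1 in wild type.

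AT5G57345 was most like PSB27, a lumen protein of photosystem II assembly and repair (r = 0.995), AT2G29290 (r = 0.993) and ALDH11A3, an aldehyde dehydrogenase family member (r = 0.991). AT2G29290 had 426.7 and 435.7 in sta1 and 1244.9, 2834.5, 1701.0, 3918.0 and 2137.4 in Col-LUC 1 to 4 and C24-LUC, the same order of wild-type arrays as AT5G57345. Its log2 difference, -2.34, was also near that of AT5G57345.

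AT3G61080 was most like AT2G42220 (r = 0.996), AT5G16940 (r = 0.995) and HEMB1, an enzyme of the porphyrin pathway to chlorophyll and haem (r = 0.993). AT1G21500 was most like AT5G49760 (r = 0.998), ORA47, a transcription factor of the AP2/ERF family (r = 0.997), and LSMT-L, a methyltransferase of plastid proteins (r = 0.994). Both sta1 signals of ORA47, 65.8 and 70, lie under 100, so it was tested only through its wild-type signals. Its log2 difference was -0.81, or -0.26 with a floor of 100. AT5G44520 was most like AT3G10060 (r = 0.998), AT1G77090 (r = 0.990) and AT1G04350 (r = 0.989). Likeness in shape was not likeness in size: the 15 genes had log2 differences of -2.34 to -0.45 between sta1 and wild type. Over the 5 wild-type arrays alone their r with the gene they resembled was between 0.955 and 0.9997. These arrays are among those that picked the 15 genes, so this r is no separate check of the likeness.

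**Figure D3:**
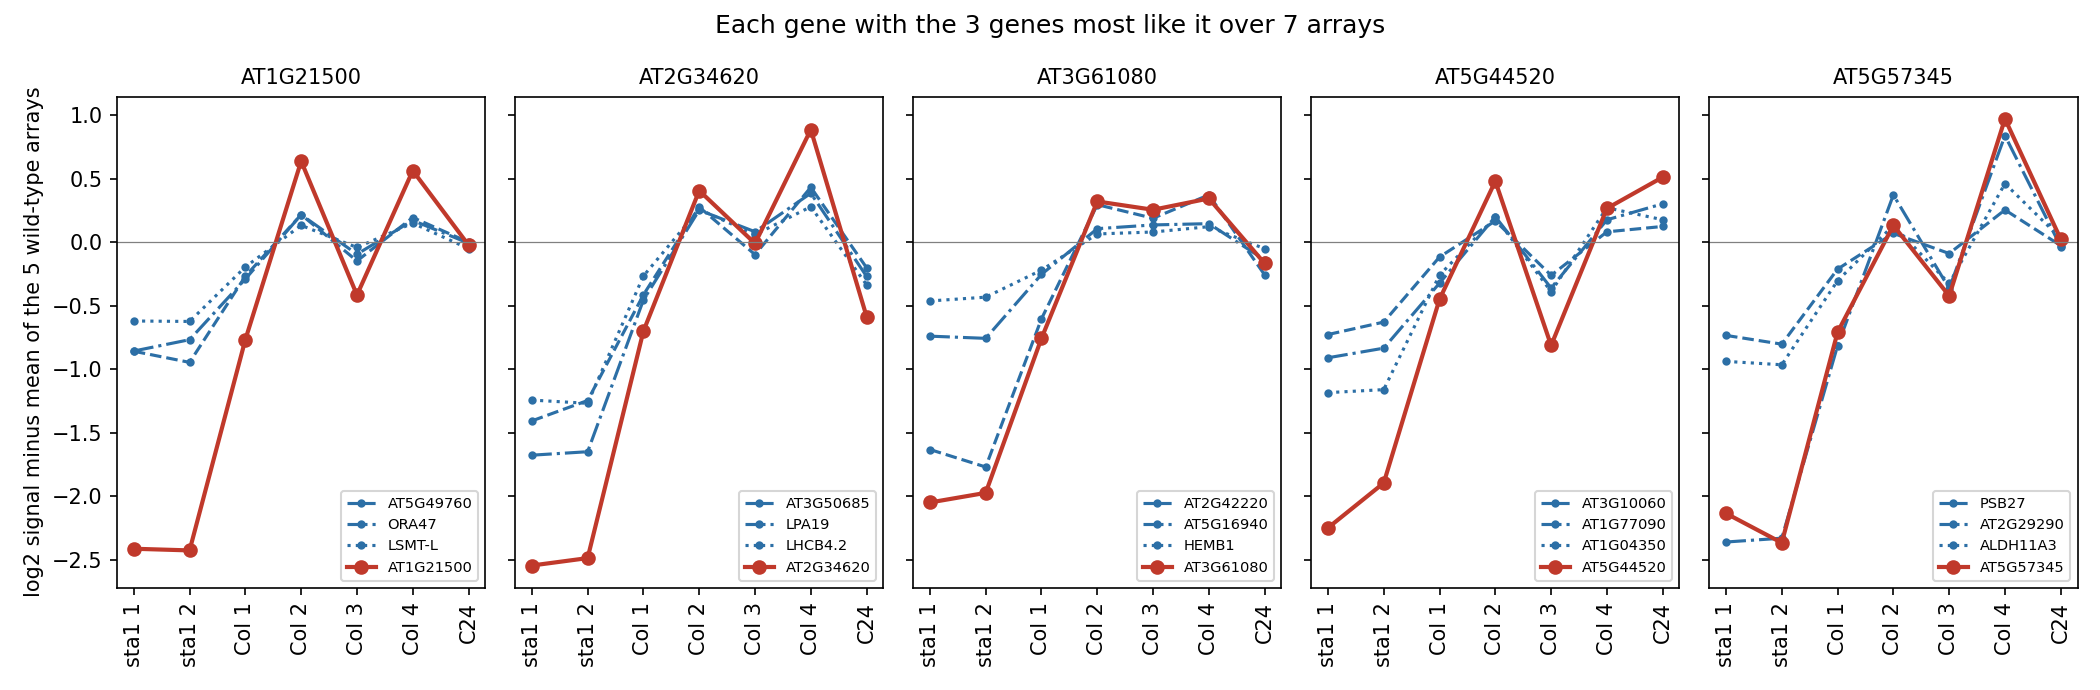
Log2 signal relative to the mean of the 5 wild-type arrays, by array, for each of the 5 genes (red) and the 3 genes most like it (blue), with lines joining arrays only to guide the eye. Both sta1 arrays are lowest for every line, the order of wild-type arrays differs between red and some blue lines, and in 4 of the 5 panels the red line lies lowest in sta1, down to -2.54 for AT2G34620.

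Genes of the same families and pathways were then examined from lists that leave out the 5 genes, in the limma fit over all tested probe sets, where 1.31% of tested probe sets were called in either direction, 23.5% had an unadjusted p under 0.05 and the median log2 difference was 0.0083. In lists this short a count of 0 lies near that background and is no result about a family. Of the other mTERF genes 0 of 13 tested passed (limma), 1 of 13 had an unadjusted p under 0.05, and 6 of 13 had a negative difference, with a median of 0.16. The 1 was AT3G18870, with signals of 57.0 and 73.5 in sta1 and 99.7 to 154.3 in wild type, a difference of -0.95 ± 0.24 (SE, 2 and 5 arrays; limma adjusted p = 0.0866). Both sta1 signals of AT3G18870 lie under 100, so it was tested only through its wild-type signals, and with a floor of 100 its difference was -0.32 (adjusted p = 0.302). AT5G07900, next by p, had a difference of -0.33 ± 0.15 (limma adjusted p = 0.243). Of the list of plastid transcription machinery, 1 gene of 21 could be tested, AT5G15700, with a difference of 0.58 ± 0.23 (limma adjusted p = 0.177).

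In the pentose phosphate and Calvin cycles, 0 of 8 tested genes passed (limma). An unadjusted p under 0.05 was found in 5 of 8, some higher and some lower in sta1. Of the 8 genes, 3 had a negative difference, and the median difference was 0.19. AT1G12230 had signals of 983.9 and 950.7 in sta1 and 1352.7 to 2024.9 in wild type, a difference of -0.74 ± 0.18 (limma adjusted p = 0.0790). PRK, the kinase that makes the CO2 acceptor of the Calvin cycle, had a difference of -0.36 ± 0.11 (limma adjusted p = 0.107). Without Col-LUC 1 both passed, with adjusted p of 0.0371 and 0.0437, and 3 of 8 genes were called. No other gene coding for a ribose-5-phosphate isomerase was among the 8 tested.

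Ascorbate genes were listed beside AT5G57345 on a tentative link that these data do not test. Of 8 tested, 1 was lower in sta1 (limma), 0 were higher, 4 had an unadjusted p under 0.05, and the median was -0.05. The gene that fell was TAPX, the thylakoid ascorbate peroxidase, which removes hydrogen peroxide in chloroplasts. It had signals of 582.4 and 556.2 in sta1 and of 1301.0, 1921.4, 1924.9, 1800.1 and 1428.2 in Col-LUC 1 to 4 and C24-LUC, with no overlap between the groups. Its difference was -1.54 ± 0.19 (SE, 2 and 5 arrays; limma adjusted p = 0.0161), and -1.16 between sta1 1 and Col-LUC 1. The call was lost without sta1 1 (adjusted p = 0.179), without sta1 2 (0.448), without a filter (0.0503), with the replicate number (0.329) or the chip lot (0.266) as a block and with only the arrays of the same year as sta1 (0.125).

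Genes of glycation repair and the glyoxalases, which clear sugar-derived aldehydes, gave 0 calls among 7 tested (limma), 1 of 7 with an unadjusted p under 0.05 and a median of 0.02. DJ1D, a protein of the DJ-1 family of deglycases and glyoxalases, had signals of 945.4 and 846.8 in sta1 and 1065.8 to 2190.3 in wild type, a difference of -0.78 ± 0.30 (limma adjusted p = 0.173). GLX2-5, a glyoxalase II, had a difference of 0.32 ± 0.16 (limma adjusted p = 0.282). Each of the 4 genes set beside a list had a more negative value than every other tested gene of that list, which their choice by this difference makes likely.

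**Figure D4:**
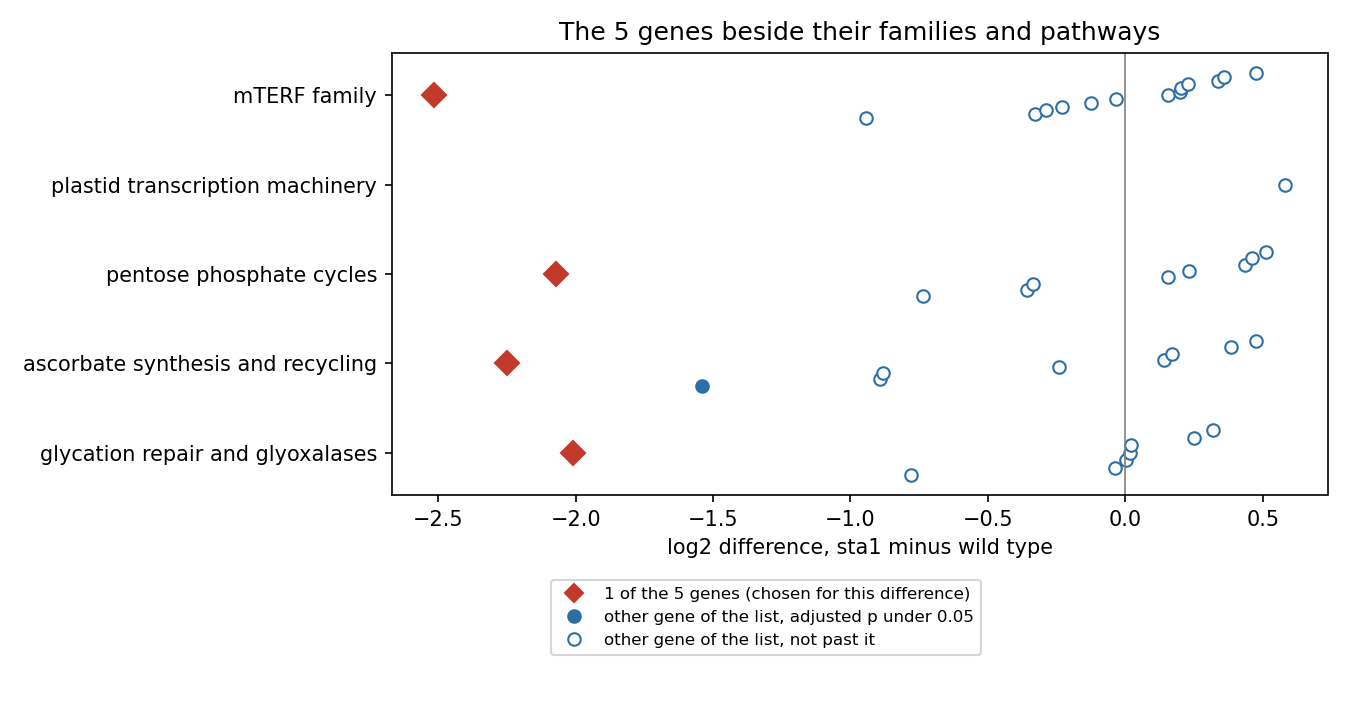
Log2 difference of sta1 from wild type for tested genes of each list (blue circles, filled where the limma adjusted p is under 0.05) and for the gene of the 5 set beside that list (red diamonds). TAPX at -1.54 is the filled circle, and most other circles lie between -1 and 0.6.

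Of 3 tested markers of green tissue, 1 was lower in sta1 and 3 of 3 had an unadjusted p under 0.05 (limma). Over all tested probe sets, 0.766% were called lower, and 23.5% had an unadjusted p under 0.05 in either direction. All 3 tested green markers (RCA, LHCB4.1 and PRK, which also stands in the pentose phosphate list) had negative differences with a median of -0.36, and their summed signal was 32611 to 34646.1 in sta1 and 41365.2 to 47914.7 in wild type. LHCB4.1, an antenna protein, was lower in sta1 by limma (difference -0.68 ± 0.11, adjusted p = 0.0360). That call was lost without any 1 array other than Col-LUC 1 (adjusted p between 0.0539 and 0.505), without a filter (0.119), without an intensity trend (0.0769), with the replicate number (0.329) or the chip lot (0.266) as a block and with the arrays of the same year (0.218). The 5 tested root markers had a median of -0.19 and 0 calls (limma; 1 of 5 with an unadjusted p under 0.05), with summed signals of 10629.7 to 12153.3 in sta1 and 10743.6 to 15476.6 in wild type. The 1 was AT2G39040, with signals of 85 and 63.4 in sta1 and 107.5 to 199.1 in wild type, which was tested only through its wild-type signals, and its difference was -0.99, or -0.54 with a floor of 100. The green marker differences were smaller than those of the 5 genes, and their part in them was not tested.

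Neighbours on the chromosome were examined in the order of genes of the TAIR10.1 assembly. The nearest tested gene on either side of each of the 5, with up to 8 untested genes between, gave 10 neighbours, of which 2 were directly adjacent. Their differences ranged from -0.88 to 1.22 with a median of 0.14, and 4 of 10 were negative. The highest, 1.22 for AT1G21520 (limma adjusted p = 0.298), was 0.28 with the chip lot block and 0.13 with the arrays of the same year as sta1. The directly adjacent genes were AT5G44530, beside AT5G44520, with a difference of -0.47 ± 0.52 (limma adjusted p = 0.611), and AT5G57340, beside AT5G57345, with -0.70 ± 0.44 (limma adjusted p = 0.367).

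AT3G61010, with 8 genes between it and AT3G61080, was the 1 neighbour of 10 that passed, against 1.31% of all tested probe sets. It had signals of 238.1 and 189.8 in sta1 and 342.6 to 429.4 in wild type, a difference of -0.88 ± 0.16 (limma adjusted p = 0.0461). Its call was lost without any 1 array other than Col-LUC 1 (adjusted p between 0.0580 and 0.523), without a filter (0.0746), without an intensity trend (0.0551), with the replicate number (0.330) or the chip lot (0.321) as a block and with the arrays of the same year (0.234). AT3G61100, on the other side of AT3G61080, had a difference of 0.50 ± 0.16 (limma adjusted p = 0.119), opposite to its neighbour.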

How the data were processed

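RNA of Arabidopsis seedlings was hybridised to 7 ATH1 arrays. Per the labels, the authors made the deposited intensity values with MAS5, 1 signal per probe set, with global scaling of every array to 500. The sources used here do not give a version of MAS5. Experiment records deposited with the arrays gave chip lot and session. Every signal column belonged to a labelled sample, and 64 control probe sets were left out.

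Signals were raised to a floor of 50 and converted to log2. A probe set was tested where 2 or more arrays reached a signal of 100 (15673, or 68.9%). R 4.3.3 and limma 3.58.1 were used (lmFit, then eBayes with an intensity trend), with Benjamini-Hochberg adjustment over all tested probe sets at 0.05. sta1 (2 arrays) was set against 5 wild-type arrays. C24-LUC was set against Col-LUC in a 3-group model, where the single C24-LUC array is taken to vary like the others. The procedure was tested on simulated data. The number of arrays limits the precision.

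Names came from the annotation of the platform, matched to RefSeq locus tags (13436 of 13513 matched). A gene with several probe sets was represented by the one with the highest mean signal. The genes, gene lists and rules were chosen with earlier results of these data known. The rule for named genes took the 5 genes, the 3 most like each, for each list up to 4 called genes or otherwise up to 2 with the smallest p, and the nearest tested neighbours. Coordinates of the RefSeq table served only to order genes for the neighbours, and sequences were not used here. Alternatives covered the floor, filter, normalization, variance model, array weights, each array left out, which wild-type arrays entered, and blocks for chip lot and for replicate number. The fit over arrays of the same year as sta1 was added after seeing the data.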

Additional observations from a re-analysis of the deposited data

Results flagged for a closer look

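Among the 4 Col-LUC arrays, Col-LUC 1 stood apart from the other 3 in 3 of the genes examined. AT3G61080 had a signal of 468.6 there, against 945.1 to 1005.2 on the others. AT5G16940, a gene resembling it, had 258.0 against 331.1 to 340.3. HEMB1, also resembling it, had 2974.6 against 3623.7 to 3770.6. AT5G16940 and HEMB1 were named because their pattern followed that of AT3G61080, so the 3 are not separate observations. In all 41 groups were examined, where chance gives 2.05.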

How the results depend on the processing

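The 5 genes were chosen with both sta1 arrays below all wild-type arrays. Only a change of normalization could therefore have turned the sign of their difference. The differences of the 5 genes between sta1 and wild type were negative in all 90 alternative values, between -2.69 and -1.25. They moved by more than the wild-type SD only with chip lot as a block, which sets sta1 against Col-LUC 1 alone, to -1.65 for AT1G21500, -1.82 for AT2G34620, -1.25 for AT3G61080 and -1.54 for AT5G57345; leaving out single arrays gave -2.69 to -1.89. The number of probe sets lower in sta1, 120, was 28 without a filter, 71 without an intensity trend, 1741 with array weights, and 0 with the replicate block, the chip lot block and the arrays of the same year (limma; 2198, 2293 and 2369 at an unadjusted p under 0.05 in either direction). With single arrays left out it lay between 0 (either sta1 array; 1708 and 1445 at an unadjusted p under 0.05) and 735 (Col-LUC 1), and was 25 to 40 when Col-LUC 2, 3 or 4 was the array left out. The cause of these shifts was not tested. The replicate block could rest on numbers 1 and 2 only; across probe sets the deviations of sta1 and Col-LUC arrays of the same number correlated at r = 0.113, which does not establish pairing.

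For C24-LUC against Col-LUC, 0 of 70 alternative values passed (adjusted p at least 0.0560), and small differences changed sign. With single arrays left out AT1G21500 lay between -0.28 (Col-LUC 1) and 0.18 (Col-LUC 2), and AT5G57345 between -0.20 (Col-LUC 1) and 0.36 (Col-LUC 4). AT5G57345 was also -0.011 with median centring and -0.13 with array weights. With the arrays of the same year, where Col-LUC 1 is the only Col-LUC array, AT1G21500 became 0.74, AT2G34620 0.11, AT3G61080 0.59, AT5G57345 0.73 (adjusted p = 0.0823) and AT5G44520 0.96 (adjusted p = 0.0940). Neither block could be fitted for this comparison.

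Calls in the lists also moved. The ascorbate list had 1 call, which was 0 without a filter, with either block, with the arrays of the same year and without either sta1 array, and 4 with array weights; its median was 0.10 with the chip lot block. The green markers had 1 call, which was 2 with array weights, 0 without a filter, without an intensity trend, with Col-LUC as the only wild type, with either block and with the arrays of the same year, and between 0 and 2 with single arrays left out. With array weights the pentose phosphate list had 4 calls and the lists of mTERF, plastid transcription, glycation and root genes 1 each; without Col-LUC 1 the pentose phosphate list had 3. Among neighbours, AT1G21480 lay between -0.15 (sta1 2) and 0.26 (sta1 1) with single arrays left out. AT5G44530 became 0.092 and AT5G57340 0.15 with the chip lot block, and AT5G44530 0.37 with the arrays of the same year.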
